A study of Rattus norvegicus with 9 samples.

Results

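Genes of the cyclic AMP pathway were examined in a small artery of hypertensive and normotensive rats: the alpha, beta and gamma subunits of heterotrimeric G proteins, the adenylyl cyclases, the phosphodiesterases, protein kinase A, and the receptor kinases and arrestins. A probeset belonged when its platform gene symbol began with Gna, Gnb, Gng, Adcy, Pde, Prkac, Prkar, Grk or Arrb followed by the letters or digits of a subunit, and each gene was read through its probeset with the highest mean log2 signal over the 9 arrays. The rule took 63 symbols, from which the rod and gustatory transducins Gnat1 and Gnat3 were left out, giving 61 members among 10411 genes with a symbol of their own on the array. There were 9 G alpha, 5 G beta and 7 G gamma genes, 7 adenylyl cyclases, 19 genes with a Pde symbol, 6 protein kinase A subunits and 8 receptor kinases or arrestins. Of the Pde symbols, Pde6d codes for a chaperone of prenylated proteins and Pde4dip for myomegalin, an anchor for phosphodiesterases at the Golgi and centrosome, so neither is itself a phosphodiesterase.

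RNA was extracted from a small leg artery, the first side branch that leaves the saphenous artery, of male rats aged 16 weeks and hybridised to Affymetrix RAE230A arrays, with 3 arrays in each of 3 groups. The SHR group comprised untreated spontaneously hypertensive rats, an inbred strain with genetic hypertension. The ACTH group comprised Wistar-Kyoto rats given adrenocorticotrophic hormone under the skin, at 0.1 mg/kg/day by the labels, for 4 weeks starting at week 12, which raises blood pressure through the adrenal cortex. The WKY group comprised untreated Wistar-Kyoto rats, the normotensive strain that serves as the control of both models. Each array held RNA pooled from 2 to 3 rats and amplified in 2 cycles, so the spread between arrays is that between pools. SHR differ from WKY at many loci besides those of blood pressure, and the treated rats were compared with untreated rather than vehicle-injected rats as far as the labels say.

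A G-protein coupled receptor acts through a trimer of G alpha, beta and gamma subunits. Gs stimulates adenylyl cyclase and Gi inhibits it. The cyclase makes cyclic AMP, which frees the catalytic subunits of protein kinase A from their regulatory subunits, and in vascular smooth muscle this relaxes the vessel. Phosphodiesterases break down cyclic AMP and cyclic GMP, while receptor kinases and arrestins uncouple the receptor from its G protein.

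Few differences among the members passed the test, at a share near that of the whole array. With a signal (the array's linear brightness value, scaled to a common mean of 150) of at least 45 on 3 or more arrays, 37 of the 61 members entered the test. None of them passed an adjusted p of 0.05 in SHR against WKY (6 had an unadjusted p under 0.05), where 2.04% of all 9038 probesets passed. None passed in ACTH against WKY either (3 had an unadjusted p under 0.05), where 1.25% of all probesets did. A member was called only in SHR against ACTH. In that contrast 3.41% of all probesets passed, and Prkar1a was called among 5 members with an unadjusted p under 0.05. In the F test over the 3 groups, which 4.12% of all probesets passed, no member passed through its brightest probeset. The 3 contrasts are not independent, because the SHR and ACTH arrays were set against the same 3 WKY arrays.

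The arrays narrowed the size of difference that could have gone unseen. The median difference over the 37 members was -0.01 in SHR against WKY on the log2 scale, beside 0.00 over all probesets, and -0.02 in ACTH against WKY, beside 0.02. The standard error of a member's difference ranged from 0.13 to 0.68, with a median of 0.18. In SHR against WKY, the 95% interval lay wholly within a change of 1 log2 unit for 34 of the 37 members, the exceptions being Gng8, Pde3b and Pde4a. In ACTH against WKY it did for 33, the exceptions being Gng5, Gng8, Pde4a and Pde9a. Intervals within 0.5 log2 units were reached by 9 members in SHR and 10 in ACTH, so smaller differences were not resolved for most. On simulated arrays with this spread, the same SHR against WKY test over 9038 probesets found 10% of differences of 0.5 log2 units and 66% of differences of 1 unit. Each of 5 simulations used independent noise and changed 200 probesets, drawn from all tested ones, by 0.5 to 2 units. The shares depend on that mix and are not specific to the members.

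**Figure D1:**
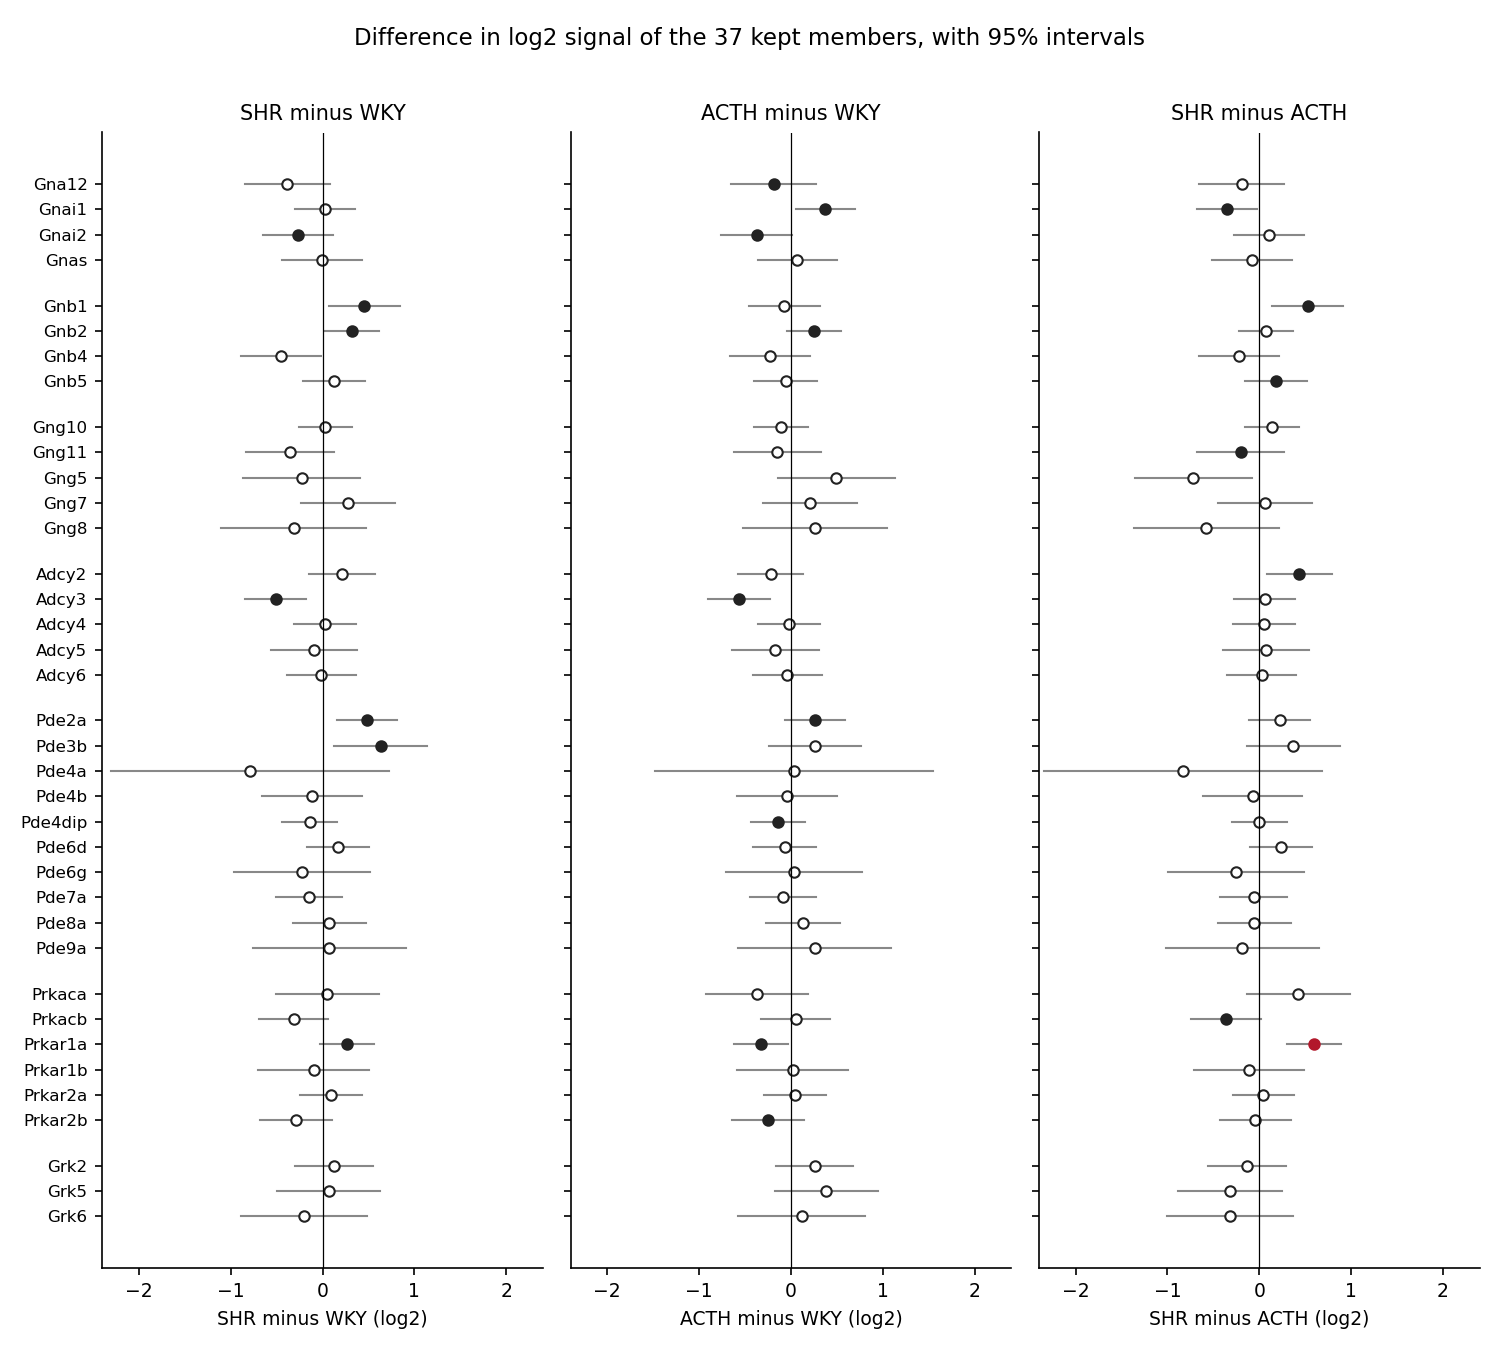
Difference in log2 signal (horizontal axes) for the 37 members above the signal minimum, by family, in SHR minus WKY, ACTH minus WKY and SHR minus ACTH, with 95% intervals of the limma fit as lines. Filled points mark members whose arrays do not overlap between the 2 groups and the red point marks the adjusted p under 0.05, which only Prkar1a reached, in SHR minus ACTH (0.59).

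Prkar1a, the type I alpha regulatory subunit that holds protein kinase A inactive until cyclic AMP binds, was the only called member and differed between the 2 models. Its brightest probeset (1388375_at) had signals of 4105, 3950 and 3960 in SHR arteries, 2740, 2618 and 2604 in ACTH arteries, and 3718, 2943 and 3378 in WKY arteries. Every SHR array lay above every WKY array, and every ACTH array lay below them. The SHR signal was 1.51 times the ACTH signal (difference 0.59 ± 0.13 SE on the log2 scale, limma adjusted p = 0.0387, n = 3 arrays each). Against WKY, the difference was 0.27 ± 0.13 in SHR (adjusted p = 0.357) and -0.33 ± 0.13 in ACTH (adjusted p = 0.341), neither past the threshold. These are tissue extracts, so fewer cells of a type and less RNA per cell cannot be told apart here or in any result that follows.

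A further Prkar1a probeset behaved in the same way and another did not. Probeset 1386905_at had 371, 419 and 334 in SHR arteries, 225, 220 and 220 in ACTH arteries, and 309, 249 and 265 in WKY arteries, again without overlap between any pair of groups. Its SHR signal was 1.68 times the ACTH signal (0.75 ± 0.14, adjusted p = 0.0197), and it passed the F test (adjusted p = 0.035). Probeset 1373951_at ran the other way, with 1088, 1064 and 1116 in SHR arteries, 1391, 1224 and 1462 in ACTH arteries, and 1655, 1304 and 1467 in WKY arteries. Every SHR array lay below every WKY and every ACTH array. The SHR difference was -0.43 ± 0.14 against WKY (adjusted p = 0.171) and -0.32 ± 0.14 against ACTH (adjusted p = 0.285). Which transcripts or strain sequences each probeset reads was not tested. The 3 probesets give the gene no single direction between SHR and ACTH.

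**Figure D2:**
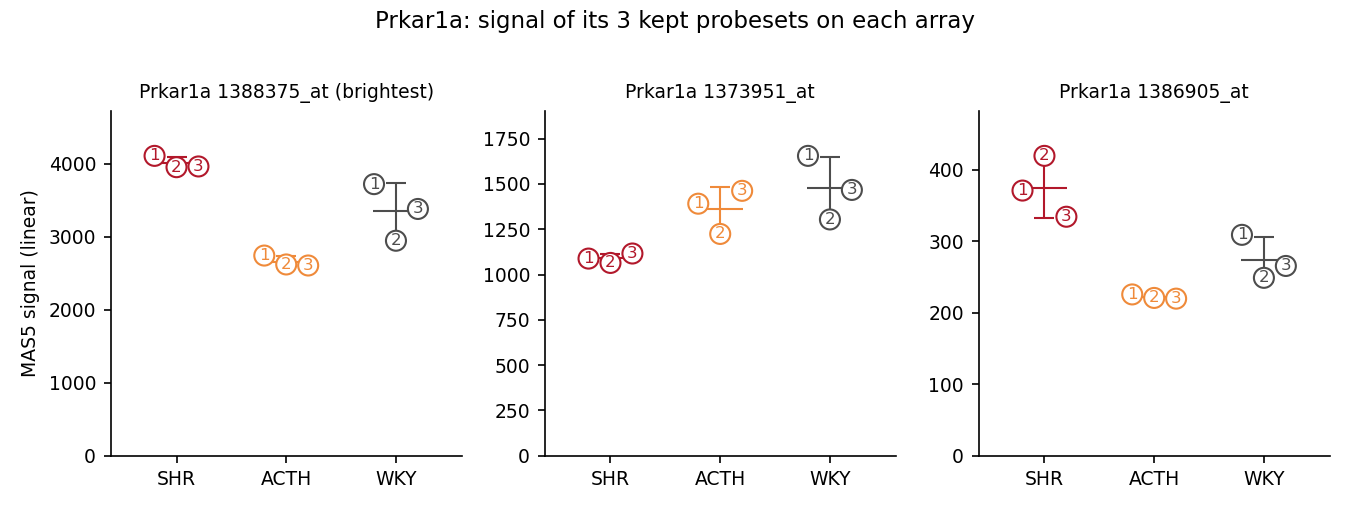
MAS5 signal (vertical axes, linear, from 0) of the 3 Prkar1a probesets on each array of SHR, ACTH and WKY; numbered circles are the arrays by replicate number, the horizontal line is the group mean and the bars are 1 SD. In 1388375_at and 1386905_at SHR lies above WKY and ACTH below it, while in 1373951_at SHR is the lowest group.

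The Prkar1a call was sensitive to the treatment of the data although its direction was not. Over 18 alternative settings the SHR minus ACTH difference of the brightest probeset stayed between 0.47 and 0.66 and that of 1386905_at between 0.59 and 0.83, and the adjusted p passed in 7 and 12 of them. The brightest probeset lost the call without WKY 3 (adjusted p = 0.0533), without any of the ACTH arrays (0.109 to 0.147) and without any of the SHR arrays (0.069 to 0.104). Probeset 1386905_at lost it without any of the ACTH arrays (0.0636 to 0.0836) and without SHR 2 (0.0783). The arrays were scanned on 4 days, and the only day that held both models had SHR 3 with all 3 ACTH arrays. Within that day SHR 3 exceeded the ACTH mean by 0.58 in 1388375_at and by 0.59 in 1386905_at and was above each ACTH array, whereas it was lower by -0.28 in 1373951_at. With scan day as a block the adjusted p was 0.296 and 0.299.

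The start of Prkar1a is shown because it is the called member and because the cyclic AMP pathway can act on its own genes through a cyclic AMP response element. The 120 bases before the RefSeq transcript start (GRCr8, chr10:95120417-95120536, plus strand) read as follows, with GC boxes (GGGCGG or its reverse complement) and the E-box (CACGTG) in capitals:
Prkar1a: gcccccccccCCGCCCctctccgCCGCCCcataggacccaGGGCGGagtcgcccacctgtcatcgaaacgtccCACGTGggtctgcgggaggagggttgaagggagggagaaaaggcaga
This stretch holds 3 GC boxes and 1 E-box, which do not overlap. Searching both strands of the 250 bases before the start, a GC box was found in 30.5% of all 33469 promoters in the table and in 57.9% of the 57 promoters of members, and an E-box in 5.59% of all and 5.26% of member promoters. The full cyclic AMP response element, TGACGTCA, was found in 1.59% of all promoters and in 1 of the 57 member promoters, that of Gnao1. These are matches of letters in a short window and were not related to binding. Promoters were matched for 43 of the 61 members.

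The other protein kinase A subunits gave smaller or less regular differences. Prkacb, the catalytic beta subunit, had 1035, 886 and 892 in SHR arteries, 1163, 1144 and 1305 in ACTH arteries, and 1452, 956 and 1128 in WKY arteries. Its SHR arrays lay below the ACTH arrays (-0.36 ± 0.17, adjusted p = 0.307) but overlapped the WKY range. Prkaca, the catalytic alpha subunit, had 85, 145 and 95 in SHR arteries, 64, 96 and 80 in ACTH arteries, and 110, 126 and 76 in WKY arteries, with all groups overlapping. The type II regulatory subunit Prkar2b had lower signals on all 3 ACTH arrays (512 to 585) than on the WKY arrays (646 to 675), a difference of -0.25 ± 0.18 (adjusted p = 0.642). Prkar2a and Prkar1b, the remaining regulatory subunits, overlapped between all groups.

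Adenylyl cyclase 3 gave the lowest F p of any cyclase. This membrane cyclase, best known from olfactory cilia, had signals of 408, 441 and 483 in SHR arteries, 417, 433 and 428 in ACTH arteries, and 748, 616 and 543 in WKY arteries. All 6 arrays of the hypertensive groups lay below all 3 WKY arrays. The mean was 444 ± 37.6 in SHR and 426 ± 7.97 in ACTH, against 636 ± 104 in WKY (SD, n = 3 each). The difference was -0.51 ± 0.15 in SHR (0.703 times WKY, adjusted p = 0.132) and -0.57 ± 0.15 in ACTH (0.676 times WKY, adjusted p = 0.126), and neither passed over all probesets. Both share the WKY arrays, of which WKY 1 was the highest, and without WKY 1 they were -0.38 and -0.44. SHR and ACTH differed from each other by 0.06 ± 0.15, with an interval of -0.28 to 0.39.

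Ratios that gauge RNA quality averaged highest in WKY, but no difference between groups was established. The 3' to 5' signal ratio of GAPDH, which rises as RNA is shortened, averaged 4.17 ± 0.86 in SHR and 4.05 ± 0.436 in ACTH, against 5.41 ± 0.541 in WKY (SD, n = 3 each). It overlapped between SHR and WKY (5.16 on SHR 3, 4.91 on WKY 3) but not between ACTH and WKY. An exact two-sided permutation test gave p = 0.2 for SHR and p = 0.1 for ACTH, with 0.1 the smallest value that 3 against 3 arrays allow. The same ratio for beta-actin was 8.8 ± 0.408 in SHR and 9.01 ± 0.655 in ACTH, against 12.1 ± 2.06 in WKY, with an exact permutation p of 0.1 for both. Adjusted over the 6 such comparisons these became 0.3 for GAPDH in SHR and 0.2 for the others. The beta-actin ratio overlapped WKY in neither model, as with Adcy3. It was 8.35 to 9.14 in SHR, 8.37 to 9.68 in ACTH and 9.77 to 13.6 in WKY. With the GAPDH ratio as a covariate the Adcy3 difference was -0.37 ± 0.20 in SHR and -0.41 ± 0.21 in ACTH. In ACTH this covariate cannot separate RNA quality from treatment, because the ratio did not overlap with WKY. On the scan day that SHR 1 and SHR 2 shared with WKY 2, Adcy3 was lower in the SHR arrays by -0.54. WKY 2 was the only WKY array of that day, and the ratios differed there too. GAPDH was 3.57 and 3.79 on the SHR arrays against 5.99 on WKY 2, and beta-actin 8.93 and 8.35 against 13.6. This day therefore cannot separate strain from RNA quality.

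The remaining cyclases showed no such separation from WKY. Adcy2 had low signals, 42, 46 and 51 in SHR arteries, 37, 34 and 30 in ACTH arteries, and 34, 46 and 40 in WKY arteries, so that the SHR arrays lay above the ACTH arrays (0.44 ± 0.16, adjusted p = 0.194) but neither lay outside WKY. Adcy5, a major cyclase of muscle that Gi and calcium inhibit, had 260, 429 and 456 in SHR arteries, 326, 383 and 350 in ACTH arteries, and 362, 457 and 375 in WKY arteries. Adcy4 had 146 to 187 in SHR arteries, 154 to 170 in ACTH arteries and 151 to 191 in WKY arteries, with intervals of the difference from WKY of -0.31 to 0.36 in SHR and -0.36 to 0.31 in ACTH. Adcy6 differed from WKY by -0.01 in SHR and -0.04 in ACTH. All 5 cyclases above the signal minimum were lower on average in ACTH than in WKY, by -0.57 to -0.02, and none was called. With the GAPDH ratio as a covariate Adcy3 was -0.41 ± 0.21. Adcy2 (0.01 ± 0.21), Adcy4 (0.07 ± 0.22), Adcy5 (0.24 ± 0.26) and Adcy6 (0.20 ± 0.23) turned to the other side of 0. Adcy4 and Adcy6 also did so without single arrays. The GAPDH ratio did not overlap between ACTH (3.67 to 4.52) and WKY (4.91 to 5.99), so this covariate cannot separate RNA quality from treatment. Adcy8 and Adcy10, the soluble cyclase, stayed at or below 21.0 on every array.

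**Figure D3:**
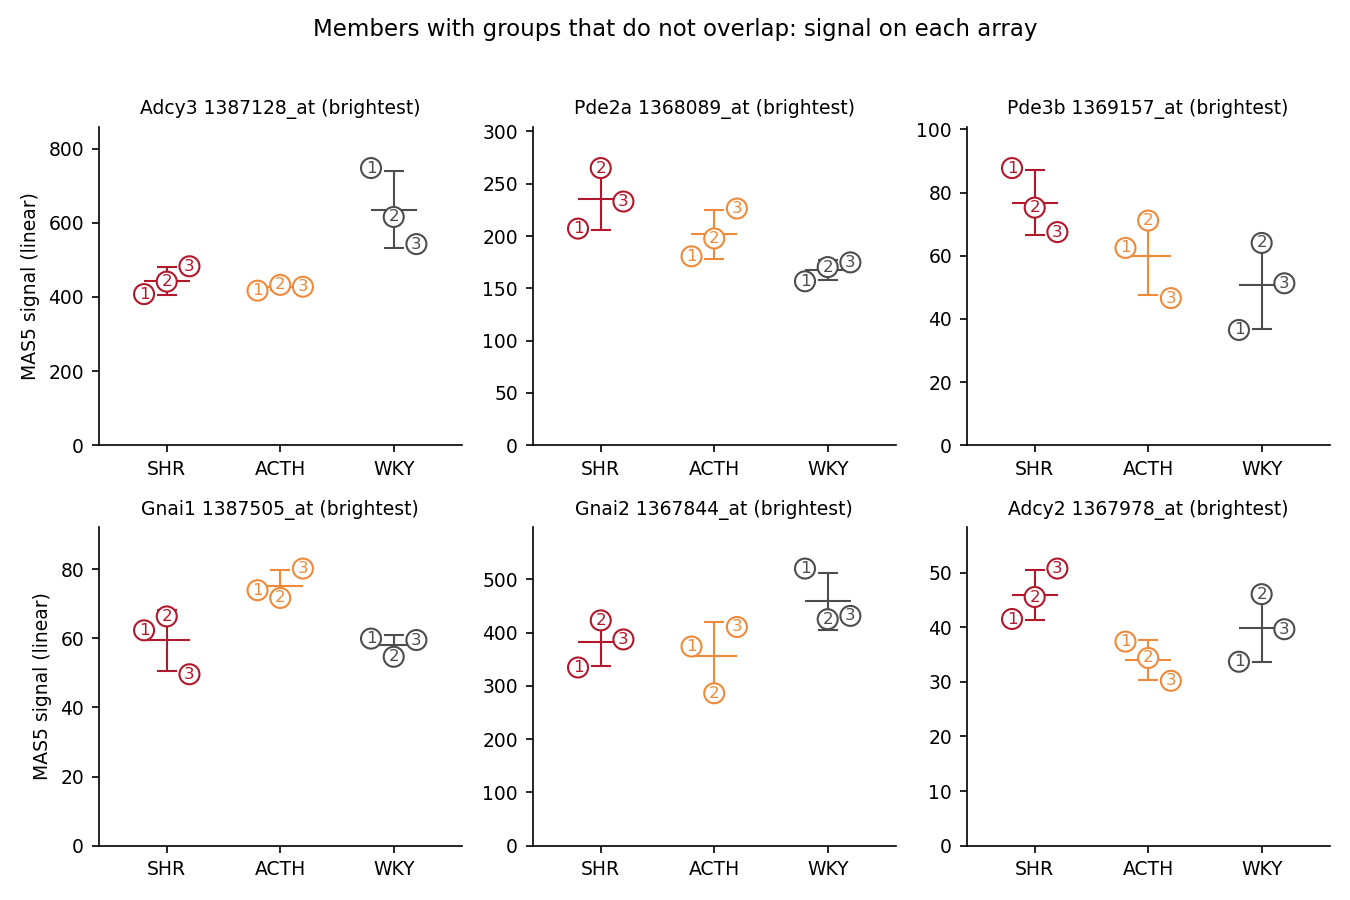
MAS5 signal (vertical axes, linear, from 0) of the brightest probeset of Adcy3, Pde2a, Pde3b, Gnai1, Gnai2 and Adcy2 on each array of SHR, ACTH and WKY; numbered circles are arrays, lines are group means and bars are 1 SD. Adcy3 and Gnai2 lie below WKY and Pde2a above it in both models, while Gnai1 is highest in ACTH (74, 72 and 80); no difference shown passed the adjusted threshold.

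Among the phosphodiesterases, Pde2a and Pde3b stood highest in SHR. Pde2a, which cyclic GMP stimulates to break down cyclic AMP, had 207, 265 and 233 in SHR arteries, 181, 198 and 226 in ACTH arteries, and 157, 170 and 175 in WKY arteries. Every SHR and every ACTH array exceeded every WKY array, with differences of 0.49 ± 0.15 in SHR (1.40 times, adjusted p = 0.143) and 0.26 ± 0.15 in ACTH (1.20 times, adjusted p = 0.54). Leaving out each array in turn kept the SHR difference between 0.40 and 0.57. Pde3b, which cyclic GMP inhibits and which is prominent in adipocytes, had 88, 75 and 67 in SHR arteries, 62, 71 and 47 in ACTH arteries, and 36, 64 and 51 in WKY arteries. The SHR arrays did not overlap the WKY arrays (0.63 ± 0.23, 1.55 times, adjusted p = 0.212), while the ACTH arrays did (0.26 ± 0.23). Of 6 adipocyte markers above the signal minimum, 5 were higher on average in SHR than in WKY and 1 was called, Cidea, which fell. Their summed signal, over 8 markers, was 1018 to 1165 in SHR, 1019 to 1251 in ACTH and 1068 to 1195 in WKY. The part of those cells in the Pde3b values was not tested.

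The other 8 genes with a Pde symbol in the test overlapped between SHR and WKY on their arrays. Pde6d had 110, 141 and 140 in SHR arteries, 107, 103 and 122 in ACTH arteries, and 116, 105 and 127 in WKY arteries (0.16 ± 0.15 in SHR). Pde4dip had 334, 405 and 398 in SHR arteries, 370, 387 and 376 in ACTH arteries, and 444, 388 and 418 in WKY arteries. Its ACTH arrays lay just below the WKY arrays (-0.14 ± 0.13, adjusted p = 0.749). The cyclic AMP-specific Pde4b, Pde7a and Pde8a differed from WKY by between -0.15 and 0.08 in SHR and between -0.09 and 0.13 in ACTH. Pde4a could not be measured with any precision, with 5 on SHR 1 and 28 to 51 on the other arrays.

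Several phosphodiesterases of smooth muscle were too dim for a test. Pde5a, the cyclic GMP-specific enzyme of vascular smooth muscle, had signals of 29.7 to 45.2, and Pde3a, the vascular and cardiac counterpart of Pde3b, 12.1 to 43.6. Pde1a, a calcium and calmodulin dependent enzyme, stayed between 1.52 and 10.5, and Pde4d between 19.4 and 38.0. No detection calls were used here, and the bacterial control probesets, which have no counterpart in rat RNA, served as a gauge, the brightest of them reaching 7.75 to 26.6 depending on the array. Of the 24 dim members, 4 exceeded the brightest bacterial probeset of the same array on all 9 arrays (Gna11, Gnao1, Pde4d and Pde5a), 13 did on some arrays and 7 on none. The 7 were Gnaq, Gngt1, Adcy8, Pde1a, Pde7b, Arrb1 and Grk1. Of the 37 tested members, 36 exceeded it on all 9 arrays. The members nearest the minimum were Pde4a, whose third-highest signal was 45.2, just inside, and Gng3 at 44.3, just outside.

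Of the G alpha subunits, Gs alpha (Gnas) did not separate the groups. Its signals were 1218, 2015 and 1988 in SHR arteries, 1803, 1884 and 1700 in ACTH arteries, and 1786, 1526 and 1827 in WKY arteries, a difference of -0.01 ± 0.20 in SHR and 0.07 ± 0.20 in ACTH. Gnai2, the Gi alpha subunit found in most cells, had 335, 423 and 387 in SHR arteries, 374, 286 and 411 in ACTH arteries, and 520, 425 and 432 in WKY arteries. All arrays of both models lay below the WKY arrays, though SHR 2 and WKY 2 were nearly equal (-0.27 ± 0.17 in SHR, adjusted p = 0.475, and -0.37 ± 0.17 in ACTH, adjusted p = 0.42). Without WKY 1 the SHR difference was -0.17, and without ACTH 2 the ACTH difference was -0.22. Gnai1, a further Gi alpha subunit, had 62, 66 and 50 in SHR arteries, 74, 72 and 80 in ACTH arteries, and 60, 55 and 59 in WKY arteries. It was highest in ACTH on every array, by 0.37 ± 0.15 over WKY (adjusted p = 0.324), and SHR was below ACTH by -0.35 ± 0.15 (adjusted p = 0.255). The difference of ACTH from WKY was 0.11 ± 0.18 with the GAPDH ratio as a covariate and 0.83 ± 0.27 with scan day as a block. ACTH and WKY shared no scan day, so the blocked value was reached only through the SHR arrays. WKY 2 was the only WKY array that informed it. Gna12, an alpha subunit of the G12 class, had 473 on SHR 1 against 774 to 991 on the other arrays, and its difference in SHR was -0.38 with that array and -0.12 without it. Its ACTH arrays lay below the WKY arrays (-0.19 ± 0.21, adjusted p = 0.788). That difference was 0.145 ± 0.273 with the GAPDH covariate and -0.639 ± 0.426 with scan day as a block.

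Markers of macrophages were higher in both models and highest in ACTH. All 8 macrophage markers on the array were above WKY on average, with a median difference of 0.83 in SHR and 1.35 in ACTH, and C1qc passed the test in ACTH (2.33 ± 0.47, adjusted p = 0.0439). Their summed signal was 1063 to 1629 in SHR, 1612 to 2415 in ACTH and 460 to 1376 in WKY. It overlapped between SHR and WKY and did not overlap between ACTH and WKY. Whether these cells carry part of the Gnai1 and Gng5 signal in ACTH was not tested. Smooth muscle markers, 10 of 10 above the minimum, summed to 35860 to 37270 in SHR, 31790 to 33640 in ACTH and 31970 to 36370 in WKY. In SHR against WKY 6 of them were higher on average and 4 lower. The only called one, Des, fell in SHR against WKY (-1.45 ± 0.22, limma adjusted p = 0.00682) and against ACTH (-1.25 ± 0.22, adjusted p = 0.013). Of 9 skeletal muscle markers 7, among them Ckm and Myh4, were under 45 on every array. Of the 2 tested, Acta1 was called higher in SHR than in WKY (0.92 ± 0.15, limma adjusted p = 0.0102) and the other was lower on average. The skeletal muscle list summed to 1450 to 1527 in SHR, 1237 to 1340 in ACTH and 1159 to 1233 in WKY. Fibroblast markers summed to 16280 to 18880 in SHR, 11210 to 14220 in ACTH and 15800 to 18890 in WKY. The probesets 1388375_at and 1386905_at of Prkar1a lay lowest in ACTH, as did the fibroblast sum. The smooth muscle sum also reached its lowest value in ACTH, though it overlapped WKY there. The fibroblast sum overlapped between SHR and WKY, whereas these probesets did not. The remaining Prkar1a probeset was lowest in SHR. Of the collagens in the fibroblast list, Col1a1 and Col1a2 fell in ACTH against WKY. Col1a1, Col1a2 and Col3a1 were higher in SHR than in ACTH. In contrast, 6 of the 10 fibroblast markers were lower on average in SHR than in ACTH (median over the list -0.05). The part of fibroblasts or smooth muscle in the Prkar1a values was not tested.

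The G beta subunits were read differently by different probesets. Gnb2, a widely expressed beta subunit, had signals of 559, 597 and 556 in SHR arteries, 559, 518 and 552 in ACTH arteries, and 404, 495 and 478 in WKY arteries through its brightest probeset (1370867_at). Both models lay above WKY without overlap, at 0.32 ± 0.13 in SHR (1.25 times, adjusted p = 0.272) and 0.25 ± 0.13 in ACTH (1.19 times, adjusted p = 0.508). Its other tested probeset (1398863_at) had 227, 531 and 448 in SHR arteries, 484, 482 and 560 in ACTH arteries, and 490, 424 and 405 in WKY arteries, with overlap throughout. There the SHR difference was -0.21 ± 0.27 and became 0.15 without SHR 1, whereas the brightest probeset gave 0.33 without SHR 1.

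Gnb1, the best studied beta subunit, gave 3 answers from 3 probesets. The brightest (1375705_at) had 2671, 2104 and 1901 in SHR arteries, 1385, 1422 and 1812 in ACTH arteries, and 1823, 1512 and 1509 in WKY arteries, so that SHR exceeded both other groups without overlap. The difference was 0.45 ± 0.18 against WKY (adjusted p = 0.241) and 0.53 ± 0.18 against ACTH (adjusted p = 0.148). Probeset 1367731_at had 421, 896 and 1168 in SHR arteries, 762, 823 and 742 in ACTH arteries, and 1171, 1144 and 1238 in WKY arteries. In that probeset the ACTH arrays lay below the WKY arrays (-0.61 ± 0.30, adjusted p = 0.452), and the SHR difference of -0.64 was -0.21 without SHR 1. With the GAPDH ratio as a covariate the ACTH and SHR differences were -0.02 ± 0.36 and -0.08 ± 0.35. With scan day as a block they were -1.49 ± 0.56 and -0.90 ± 0.405, the ACTH value being reached only through the SHR arrays. Probeset 1367732_at had 145, 128 and 122 in SHR arteries, 116, 138 and 137 in ACTH arteries, and 106, 117 and 103 in WKY arteries, 0.28 ± 0.14 above WKY in SHR. No direction for Gnb1 followed from them together.

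**Figure D4:**
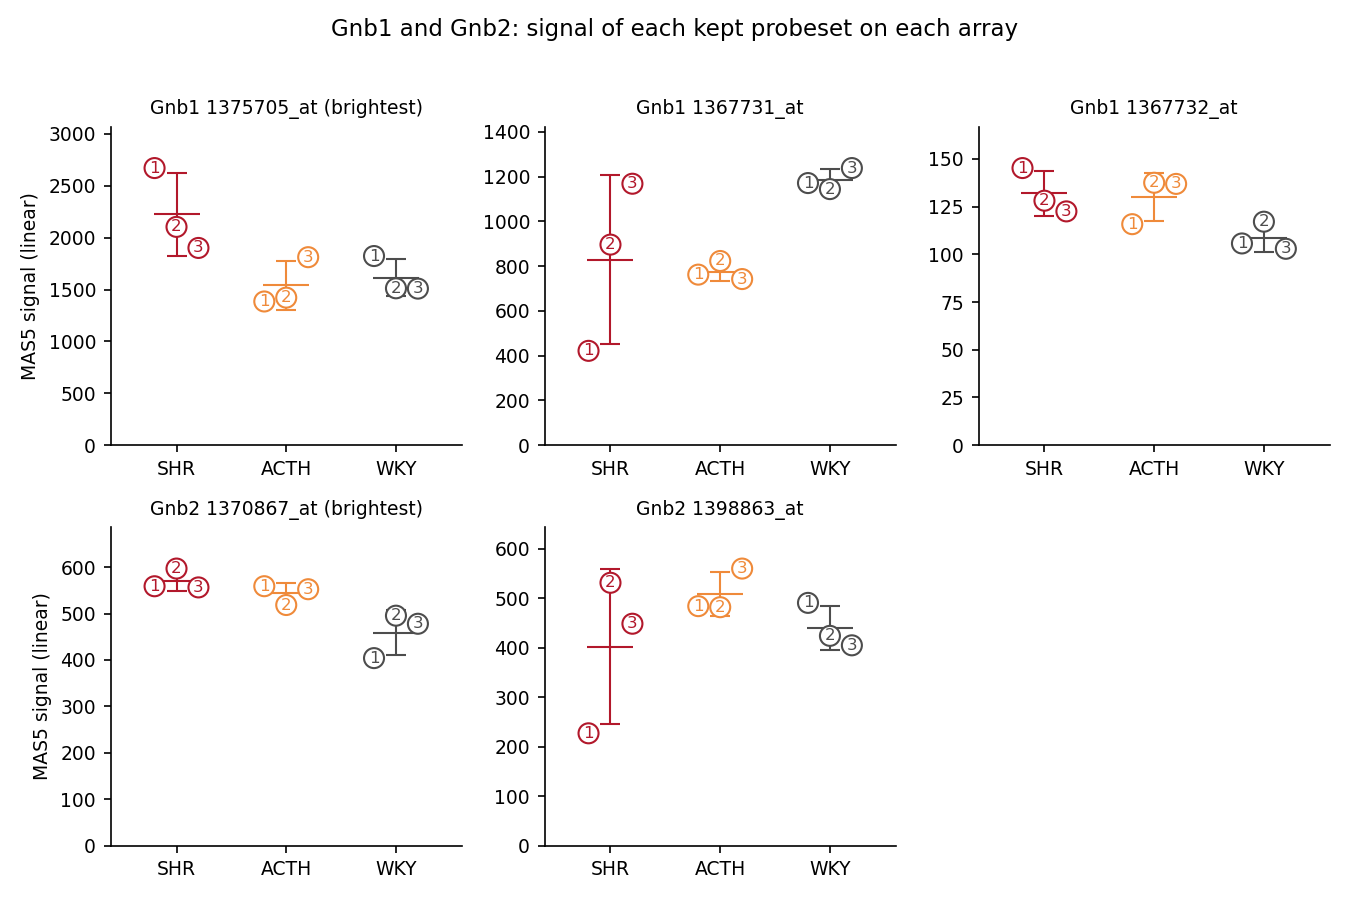
MAS5 signal (vertical axes, linear, from 0) of the 3 Gnb1 and 2 Gnb2 probesets on each array of SHR, ACTH and WKY; numbered circles are arrays, lines are group means and bars are 1 SD. SHR 1 is the highest array in Gnb1 1375705_at (2671) and the lowest in Gnb1 1367731_at (421) and Gnb2 1398863_at (227).

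Gnb4 had 228, 185 and 165 in SHR arteries, 194, 271 and 210 in ACTH arteries, and 309, 276 and 209 in WKY arteries, and SHR 1 exceeded WKY 3 (-0.45 ± 0.20, adjusted p = 0.292). Gnb5, the beta subunit that pairs with RGS proteins, lay above ACTH on all SHR arrays by 0.18 ± 0.15 and overlapped WKY. Among the G gamma subunits, Gng5 had 421, 365 and 634 in SHR arteries, 609, 824 and 864 in ACTH arteries, and 830, 457 and 411 in WKY arteries. Its second probeset (1398818_at) had 63, 51 and 53 in SHR arteries, 66, 68 and 73 in ACTH arteries, and 51, 43 and 53 in WKY arteries. Both placed ACTH over WKY by 0.49 (SE 0.29 and 0.14, adjusted p = 0.557 and 0.164), and in the second the ACTH arrays were above all others. In the first the value was 0.80 without WKY 1, 0.30 without WKY 3, 0.88 with the GAPDH covariate and 0.03 with scan day as a block. In the second it was 0.33 with the covariate and 0.76 with the block. ACTH and WKY shared no scan day, so both block values were reached only through the SHR arrays.

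Gng11, a farnesylated gamma subunit, had 868, 772 and 958 in SHR arteries, 1005, 974 and 1005 in ACTH arteries, and 1596, 833 and 1005 in WKY arteries. Its SHR arrays lay below the ACTH arrays by -0.21 ± 0.22, and WKY overlapped both groups. Gng10 stayed within 577 to 740 on all 9 arrays, and the interval of its SHR difference was -0.26 to 0.32. Gng7 and Gng8 overlapped between all groups. Gng8, known from olfactory and vomeronasal neurons, had 101 on SHR 1 against 171 to 351 elsewhere.

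Receptor kinases gave no separation. Grk2, the kinase that uncouples beta-adrenergic receptors in heart and vessels, had 53, 75 and 71 in SHR arteries, 65, 76 and 74 in ACTH arteries, and 47, 67 and 68 in WKY arteries (0.13 ± 0.19 in SHR and 0.26 ± 0.19 in ACTH). Grk5 had 58, 55 and 32 in SHR arteries, 55, 59 and 61 in ACTH arteries, and 34, 61 and 43 in WKY arteries. Grk6 had 49, 113 and 115 in SHR arteries, 119, 111 and 93 in ACTH arteries, and 100, 126 and 77 in WKY arteries, and its SHR difference was -0.20 with SHR 1 and 0.20 without it. Both arrestins were dim, Arrb1 at 0.636 to 14.4 and Arrb2 at 3.77 to 38.8, so their levels were not compared.

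Lack of overlap between groups was no more frequent among the members than on the whole array in the SHR comparisons. SHR and WKY arrays did not overlap for 7 of the 37 members (18.9%), against 19.3% of all probesets. They were higher in SHR for Pde2a, Pde3b, Gnb1, Gnb2 and Prkar1a and lower for Adcy3 and Gnai2. These directions are those of the brightest probesets. Of the other tested probesets, Prkar1a 1373951_at (-0.43), Gnb1 1367731_at (-0.64) and Gnb2 1398863_at (-0.21) were lower in SHR than in WKY. Prkar1a 1386905_at (0.45) and Gnb1 1367732_at (0.28) were higher. ACTH and WKY arrays did not overlap for 9 members (24.3%), against 20.5% of all probesets. They were higher in ACTH for Pde2a, Gnb2 and Gnai1 and lower for Adcy3, Gnai2, Gna12, Prkar1a, Prkar2b and Pde4dip. SHR and ACTH arrays did not overlap for 7 members (18.9%), against 25.0% of all probesets. They were higher in SHR for Prkar1a, Gnb1, Gnb5 and Adcy2 and lower for Gnai1, Gng11 and Prkacb.

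SHR 1 was the array on which members were most often lowest. It held the lowest of the 9 signals for 13 of the 37 members (35.1%) and for 20.9% of all probesets. Among them were Gnas, Gna12, Adcy3, Adcy4, Adcy5, Adcy6 and Grk6. Its correlation with the other arrays over all probesets was 0.917 to 0.952, and WKY 1 had a range of 0.917 to 0.960. Without SHR 1 no member was called in any contrast through its brightest probeset, and the Prkar1a difference between SHR and ACTH was 0.58 (adjusted p = 0.069). That probeset also lost its call without any other SHR or ACTH array. Probeset 1386905_at of Prkar1a kept its call without SHR 1 (0.75, limma adjusted p = 0.0406).

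**Figure D5:**
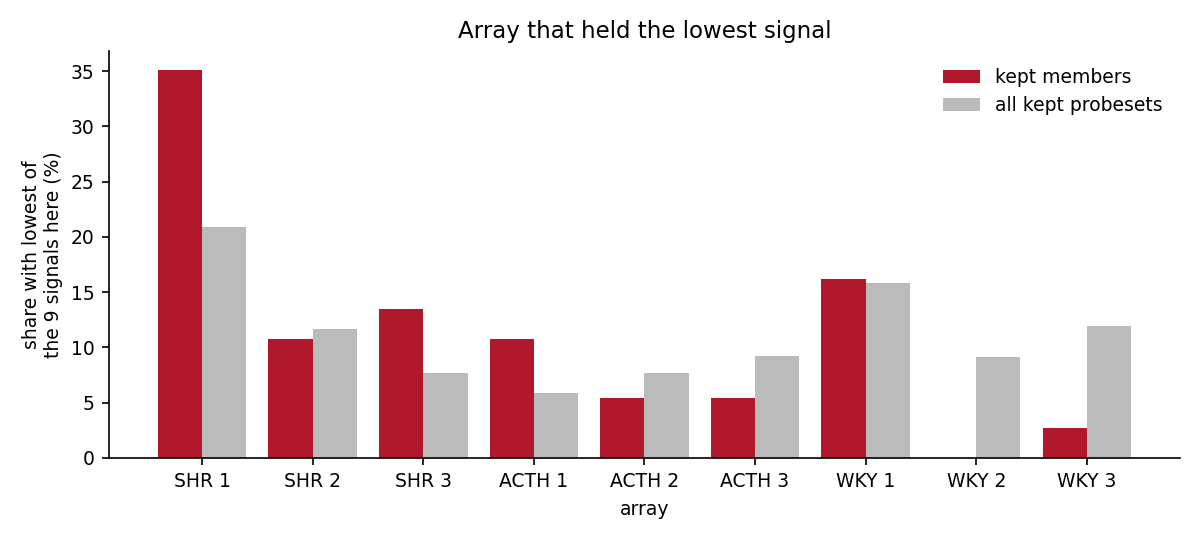
Share of the 37 members (red) and of all 9038 probesets (grey) for which each array (horizontal axis) held the lowest of the 9 signals, in percent. SHR 1 is highest in both, at 35.1% of members and 20.9% of all probesets, and WKY 2 was lowest for no member.

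Genes around the pathway were called at shares near those of the whole array, which were 2.04% in SHR against WKY, 1.25% in ACTH against WKY and 3.41% in SHR against ACTH. Apart from members, 143 genes of lists on anchoring proteins, protein kinase A inhibitors, exchange factors and channels, CREB factors and their targets, receptors, effectors of Gq, RGS proteins, chaperones and cyclic GMP enzymes were on the array, and 85 of them entered the test. In SHR against WKY none rose and 1 fell (1.18%): Rgs5, a pericyte and smooth muscle RGS protein that shortens Gi and Gq signalling, at -0.97 ± 0.18 (adjusted p = 0.0233). In ACTH against WKY none rose and 2 fell (2.35%). These were Rgs2, which limits Gq signalling in vascular smooth muscle, at -0.95 ± 0.14 (adjusted p = 0.012), and Per1, a clock gene that cyclic AMP and glucocorticoids induce, at -2.92 ± 0.55 (adjusted p = 0.0328). In SHR against ACTH 1 rose, Rgs2 at 0.69 ± 0.14 (adjusted p = 0.0258), and 2 fell (3.53% called in all). The 2 were Dusp1, a MAP kinase phosphatase, at -1.43 ± 0.20 (adjusted p = 0.0043) and Map2, a microtubule protein that anchors protein kinase A, at -1.72 ± 0.29 (adjusted p = 0.0101). No receptor, CREB factor, exchange factor or cyclic GMP enzyme of the lists was called.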

How the data were processed

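The authors deposited MAS5 signal intensity for 15923 probesets on 9 arrays, on a linear scale and scaled to a target of 150; no detection calls were used here. Gene symbols came from the platform annotation. Probesets with several symbols were left out of the membership. After 57 controls were removed, 9038 of 15866 probesets had a signal of at least 45 on 3 or more arrays. A linear model of log2 intensity on group was fitted by limma 3.58.1 under R 4.3.3, with moderated variances from eBayes; p-values are two-sided, adjusted by Benjamini-Hochberg over these probesets, with a threshold of 0.05. Intervals are at 95%. The number of arrays limits the precision. The fit was tested on simulated data. 3' to 5' ratios were compared by exact permutation tests (SciPy 1.17.1). Nothing in the labels pairs arrays across groups. Scan days are those in the array files, and batch and group are largely mixed: day 4 held ACTH 1 to 3 and SHR 3, day 2 SHR 1, SHR 2 and WKY 2. WKY 1 and WKY 3 were each alone on a day. No day held both ACTH and WKY arrays, so blocked ACTH against WKY differences were reached only through the SHR arrays. The GAPDH ratio did not overlap between ACTH and WKY, so as a covariate it cannot be separated from treatment there. Alternatives were the filter, scaling, an offset of 16, the GAPDH ratio as covariate, scan day or replicate number as a block, tests without moderation, and each array left out.

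Members, gene lists and tests were chosen with earlier results of these data known. Named were members that were called, Adcy3, Gnb2, Adcy2 and Pde2a, the 2 members of each family with the lowest F p not yet named, and the brightest member of each family; others are given where a count is listed or a value stands apart. Promoters came from RefSeq (GRCr8).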

Additional observations from a re-analysis of the deposited data

Results flagged for a closer look

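The effects of the models on Prkar1a differed from each other in 2 probesets, by the test of SHR against ACTH itself. In 1386905_at SHR minus ACTH was 0.75 (limma adjusted p = 0.0197) and in 1388375_at it was 0.59 (adjusted p = 0.0387). In both, every SHR array lay above and every ACTH array below the WKY arrays. The third probeset, 1373951_at, had the opposite sign (-0.32, adjusted p = 0.285), with every SHR array below every ACTH and every WKY array. Groups of 3 arrays were too small to test for a single outlying array.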

How the results depend on the processing

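No member was called in SHR against WKY or ACTH against WKY under any alternative. In SHR against ACTH the 1 called member became 0 with no filter, quantile normalization, scan day as a block and replicate number as a block, and 0 to 1 with an array left out. Counting every tested probeset of a member gene gave 2 probesets, both of Prkar1a, so still 1 gene; in the F test it gave 1 probeset of Prkar1a, and an offset of 16 gave 1 member. For Prkar1a, the adjusted p of SHR against ACTH in 1388375_at was 0.143 with no filter, 0.0703 after quantile normalization and 0.0633 with the replicate block; without WKY 3 it was 0.0533, and without each ACTH or SHR array in turn 0.069 to 0.147, the direction being kept. Over all probesets, no filter gave 72, 0, 52 and 63 calls in SHR against WKY, ACTH against WKY, SHR against ACTH and the F test. The GAPDH covariate gave 35, 0 and 175 in SHR against WKY, ACTH against WKY and the F test, and scan day as a block gave 25, 0, 34 and 40 in the 4 tests. Without moderation there were 90, 5, 120 and 117. Leaving out an array gave 100 to 225, 34 to 136, 108 to 322 and 163 to 393. Counts dropped by over 1.5 times in SHR against WKY without ACTH 1, SHR 1, SHR 2, WKY 1 or WKY 3; in ACTH against WKY without any ACTH array, WKY 1 or WKY 3; in SHR against ACTH without any ACTH array, SHR 2 or SHR 3; and in the F test without any ACTH array or SHR 2. With the replicate block the counts were 156, 97, 256 and 310; the numbers do not pair the arrays, since deviations of same-numbered arrays correlated at -0.072 to 0.132. Among the named members' differences, 68 of 1293 values under alternatives changed sign, none of them of a called difference and all of a difference of at most 0.32. Some settings test more probesets (no filter) or fewer arrays; for the others the cause of the change was not tested.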
